A study of Mus musculus with 21 samples.

Results

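Neurogenic genes of the cranial ganglia were followed through every library of the series. The 8 genes were Neurog1, Neurog2, Neurod1, Neurod4, St18, Isl1, Phox2a and Elavl4, taken by symbol from 24594 genes, and all 8 were present in both count tables. The dissected libraries came from pharyngeal arches 2 and 3 (PA2 and PA3), paired swellings on the side of the embryonic head and neck, of mouse embryos at E10.5. They were either wild type (WT) or HIRE1del/del, here HIRE1del, that is homozygous for a CRISPR deletion of HIRE1, a distant regulatory region of the Hoxa2 gene. A second set of libraries held crest cells sorted by FACS, 1 group from PA2 (E10.5) and 2 from the pinna, or ear flap (E12.5 and E14.5), all WT by their labels. The sorted cells were marked by RFP through Wnt1::Cre;ROSARFP, in which the Wnt1 promoter drives Cre in the dorsal neural tube and the crest that leaves it, so that crest descendants are red and cells of ectodermal placodes, endoderm and mesoderm are not. Each of the 7 groups had 3 libraries, described as independent biological replicates. Mice had a mixed C57Bl/6J;CD1 background, and each library pooled male and female embryos. The questions were how PA3 and PA2 differed in these genes and whether the sorted crest held them.

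Sensory neurons of the distal ganglia beside the arches are born in the epibranchial placodes, thickened patches of surface ectoderm above the arch clefts, and not in the crest, which gives the glia of these ganglia. In a placode, the basic helix-loop-helix (bHLH) factors Neurog1 and Neurog2 commit a cell to the neuronal fate, Neurog2 being the main one of the epibranchial placodes in the mouse. The bHLH factors Neurod1 and Neurod4 act after them in the departing neuroblast, as do St18, a zinc finger factor of the Myt family, the homeobox factors Isl1 and Phox2a, which fix sensory and visceral neuron identity, and Elavl4 (HuD), an RNA-binding protein of newly born neurons. Isl1 is also known from pharyngeal endoderm and the second heart field, so it is the least specific to neurons of the group.

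The genes lay on 7 chromosomes of GRCm38 (GENCODE M21). Neurog1 spanned 56250478 to 56252163 of chromosome 13 on the minus strand, Neurog2 127633135 to 127635631 of chromosome 3 on the plus strand, and Neurod1 79452521 to 79456751 of chromosome 2 on the minus strand. Neurod4 spanned 130268152 to 130280240 of chromosome 10 (minus), and St18 6487231 to 6860940 of chromosome 1 (plus). Isl1 spanned 116298281 to 116309689 of chromosome 13 (minus), Phox2a 101818313 to 101822726 of chromosome 7 (plus), and Elavl4 110203722 to 110351909 of chromosome 4 (minus). Neurod1 shared 355 of 2729 exon bases with Cerkl and Gm26755, and Phox2a shared 95 of 2035 with Inppl1. The library kit did not mark strand, so reads in those stretches could not be told apart between the genes. The other 6 genes shared no exon base with another gene.

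Because bHLH factors bind the E-box (CANNTG), the 250 bases before the RefSeq start (GRCm38.p6) were searched for it in the 7 of 8 genes with an entry, all but St18. In that window 66.2% of all 32851 RefSeq promoters held at least 1 E-box. Neurog1, Neurog2, Neurod4 and Phox2a held none there, Neurod1 and Isl1 held 1 each, and the 4 Elavl4 promoters held 0, 3, 3 and 1. The Neurod1 E-box was CATATG, a form present in 3.46% of promoters and palindromic, so that both strands were read at once. It lay 242 to 237 bases before the start. The Isl1 E-box was CAGCTG, 103 to 98 bases before the start. The E-box form CAGATG, searched together with its reverse complement CATCTG, occurred in 3 of the 4 Elavl4 promoters, all at starts inside the gene and 2 of them overlapping, and in none of the other 6 genes, against 14.4% of all promoters. The stretches of Neurog2, a head gene of the cascade, of Neurod1, its classic follower, and of Isl1, the most abundant of the 8, are shown because the results compare them; they run 5′ to 3′ on the strand of the gene, stop where GENCODE starts the gene, and carry E-boxes in capitals. They cover chr3:127632886-127633134 (plus), chr2:79456752-79456886 (minus) and chr13:116309690-116309938 (minus).
Neurog2: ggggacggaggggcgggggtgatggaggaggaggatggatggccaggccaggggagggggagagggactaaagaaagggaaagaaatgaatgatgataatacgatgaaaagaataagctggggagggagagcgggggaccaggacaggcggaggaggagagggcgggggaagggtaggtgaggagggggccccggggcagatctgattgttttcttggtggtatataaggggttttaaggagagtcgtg
Neurod1: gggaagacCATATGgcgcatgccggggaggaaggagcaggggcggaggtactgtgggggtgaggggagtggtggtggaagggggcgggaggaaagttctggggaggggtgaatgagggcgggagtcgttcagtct
Isl1: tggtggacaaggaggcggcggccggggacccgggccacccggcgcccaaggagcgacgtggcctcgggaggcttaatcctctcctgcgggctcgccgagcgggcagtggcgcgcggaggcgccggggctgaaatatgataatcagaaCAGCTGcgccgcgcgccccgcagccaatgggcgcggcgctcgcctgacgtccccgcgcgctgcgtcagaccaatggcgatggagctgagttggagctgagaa

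Total counts per library were 25.8 to 32.2 M in the dissected set and 25.8 to 49.1 M in the sorted set. Hoxa2, as a check of the labels, was at 78.3 ± 5.49 CPM in PA2 WT and 5.87 ± 1.17 in PA2 HIRE1del, and at 61.4 ± 4.72 and 23.8 ± 1.75 in PA3 (mean ± SD, n = 3), CPM being the read count of a gene relative to the library total. The labels call every library cranial neural crest cells, but no sort is stated for the dissected arches, and these also held markers of other cells. The 12 epithelial markers summed to 325 to 369 CPM in PA2 WT and to 11.9 to 14.3 CPM in the sorted E10.5 PA2, and the 6 erythroid markers to 1526 to 2395 CPM and to 1.84 to 7.48 CPM.

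PA3 held the neurogenic genes at far higher levels than PA2. In WT, Neurog2 was 18.6 ± 4.58 CPM in PA3 and 0.239 ± 0.113 in PA2, and the other determination, differentiation and Phox2a transcripts showed the same split, while Isl1 and Elavl4 were present in both arches and differed by less. All 8 genes were higher in PA3 in WT and again in HIRE1del by edgeR's quasi-likelihood test with Benjamini-Hochberg adjustment over all genes, where 19.1% and 18.7% of the 14383 genes tested were called higher. Genes were tested if at least 2 libraries reached 1 CPM, and Neurog1, Neurog2, Neurod1, Neurod4, St18 and Phox2a did so only through PA3 libraries, so they could enter the test only by being high there and their calls are no count of independent results. Isl1 and Elavl4 passed in all 12 libraries. In a bulk tissue, fewer cells of a type and less RNA per cell cannot be told apart.

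The neurogenins were close to the limit of detection in PA2. Neurog1 was at 3.10, 2.22 and 1.80 CPM in the 3 PA3 WT libraries and at 0, 0.0351 and 0.123 CPM in the PA2 WT libraries. These PA2 values rest on 5 counts in all. The log2 fold change was 5.26 ± 0.60 (SE; adjusted p = 2.70e-05), and the ratio of summed counts was 40.6, with a 95% counting interval of 17.1 to 126. In HIRE1del, Neurog1 was at 1.57, 1.82 and 0.904 CPM in PA3 and at 0.0752, 0 and 0 in PA2, where 2 counts gave a ratio of 56.6 (15.3 to 473). Neurog2 was the more abundant of the pair. Its PA3 WT libraries had 23.9, 16.3 and 15.7 CPM against 0.348, 0.246 and 0.123 in PA2 WT, a log2 fold change of 6.30 ± 0.35 (adjusted p = 1.01e-07). In HIRE1del the values were 14.3, 15.4 and 10.7 CPM in PA3 against 0.188, 0 and 0.148 in PA2, with a log2 fold change of 6.84 ± 0.40 (adjusted p = 1.86e-07). No PA2 library reached any PA3 library for either gene.

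Neurod1, Neurod4 and St18, which mark cells already leaving the progenitor state, split in the same way. Neurod1 was at 20.9, 19.7 and 12.4 CPM in PA3 WT and at 0.426, 0.246 and 0.277 in PA2 WT (log2 fold change 5.80 ± 0.45, adjusted p = 1.27e-06). In HIRE1del it was at 6.73, 16.5 and 17.9 CPM in PA3 and at 0.225, 0.0390 and 0.259 in PA2 (6.25 ± 0.50, adjusted p = 1.64e-06). The lowest PA3 library, HIRE1del replicate 1, was still far above the highest PA2 library. Neurod4 was at 14.3, 11.8 and 9.07 CPM in PA3 WT against 0.155, 0.175 and 0.0308 in PA2 WT (6.61 ± 0.48, adjusted p = 8.98e-07). The HIRE1del libraries had 4.98, 11.7 and 11.1 CPM of Neurod4 in PA3 and 0.150, 0.195 and 0.0370 in PA2 (6.15 ± 0.49, adjusted p = 1.49e-06). St18 was the scarcest of these genes per base of exon and spread most. Its PA3 values were 7.15, 6.61 and 2.90 CPM in WT and 1.16, 6.71 and 9.14 in HIRE1del, and no PA2 library held more than 3 counts of it. The log2 fold change of St18 was 6.23 ± 0.85 in WT (adjusted p = 1.11e-04) and 6.40 ± 0.88 in HIRE1del (adjusted p = 1.20e-04), and the ratio of summed counts 78.5 (95% counting interval 35.8 to 215) and 91.7 (39.0 to 284).

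Phox2a, Isl1 and Elavl4 differed in degree. Phox2a was at 6.85, 4.64 and 5.95 CPM in PA3 WT and at 0.387, 0.421 and 0.123 in PA2 WT (log2 fold change 4.24 ± 0.33, adjusted p = 1.27e-06). In HIRE1del its values were 3.63, 4.83 and 4.03 CPM in PA3 and 0.338, 0.156 and 0.296 in PA2 (3.95 ± 0.35, adjusted p = 3.20e-06). Isl1 was high in every dissected library and the tightest of the 8 between replicates. It was at 96.6, 84.6 and 86.1 CPM in PA3 WT and at 51.4, 50.2 and 50.1 in PA2 WT, a log2 fold change of 0.82 ± 0.07 (adjusted p = 3.88e-06). In HIRE1del it was at 84.4, 79.6 and 78.2 CPM in PA3 and at 43.8, 40.4 and 35.3 in PA2 (1.02 ± 0.08, adjusted p = 9.01e-07). Elavl4 was at 20.4, 18.0 and 11.4 CPM in PA3 WT and at 9.41, 4.00 and 6.62 in PA2 WT (1.31 ± 0.33, adjusted p = 0.00785), so that the lowest PA3 library was only just above the highest PA2 library. In HIRE1del Elavl4 was at 8.64, 20.6 and 19.7 CPM in PA3 and at 4.96, 4.83 and 3.99 in PA2 (1.83 ± 0.35, adjusted p = 0.00137). The arches did not overlap in any of the 8 genes in either genotype, but all except Isl1 and Elavl4 entered the test only through PA3. How many of all genes had arches apart is not given here.

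**Figure D1:**
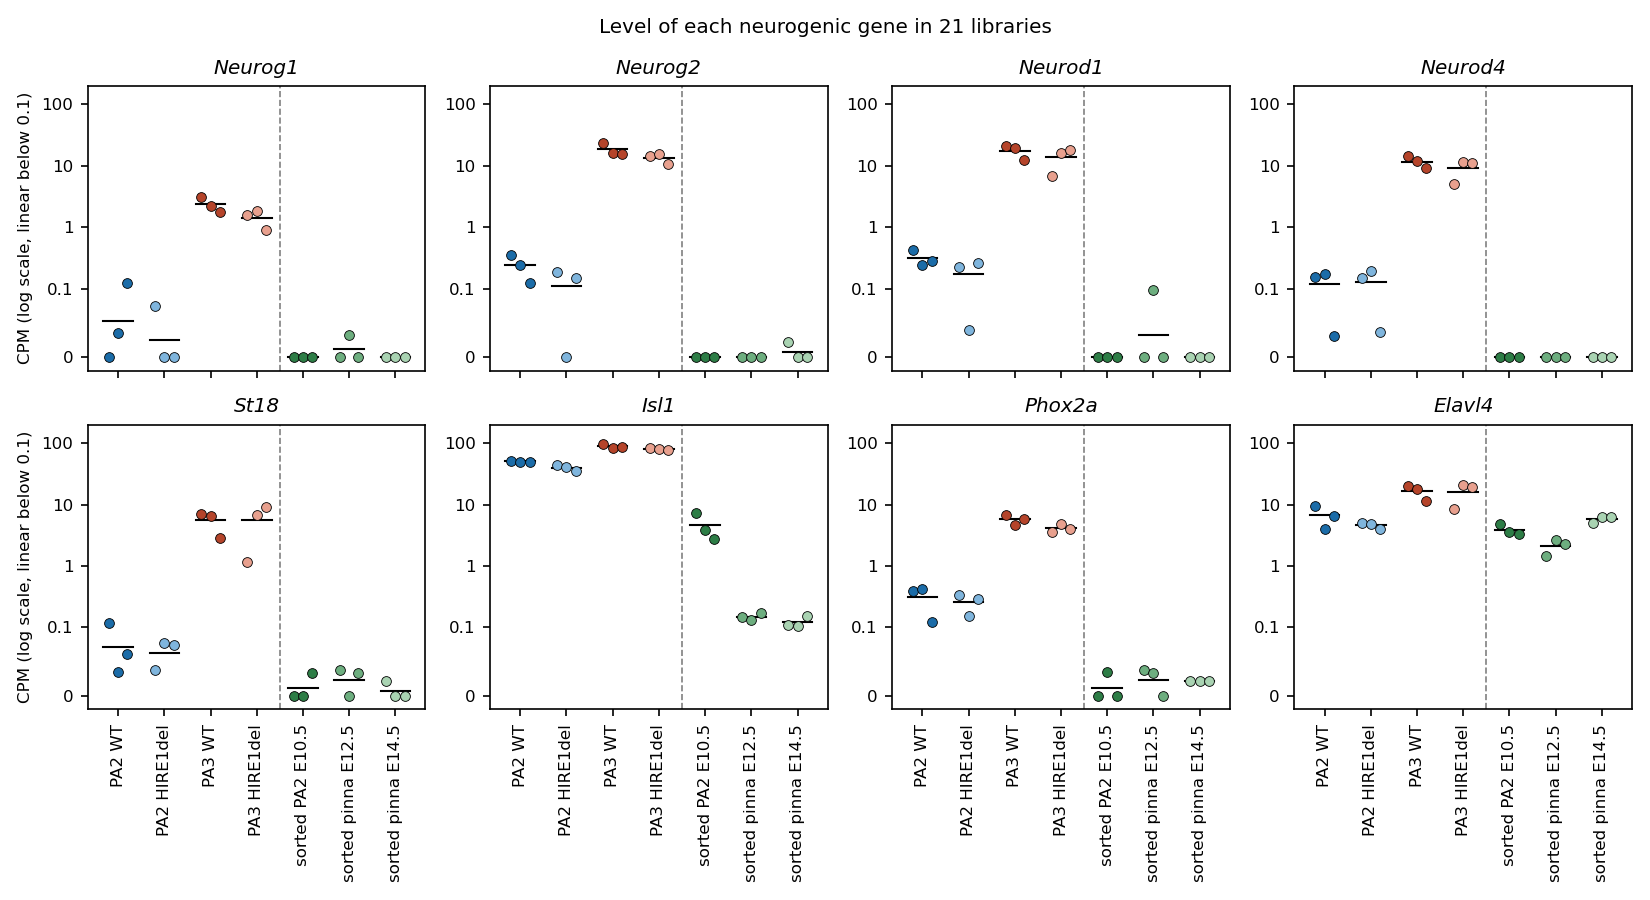
Level of the 8 genes in CPM in all 21 libraries (points, replicates 1 to 3 from left to right; line, mean of 3), on a log axis that is linear below 0.1 CPM. Dissected arches are left of the dashed line and sorted crest right of it, and the sets were normalized separately. PA3 WT Neurog2 sits at 15.7 to 23.9 CPM, PA2 WT at 0.123 to 0.348 CPM and the sorted E10.5 PA2 at 0.

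Per kilobase of exon, the order of the genes also differed between the arches. In PA3 WT, Isl1 had 22.5 ± 1.65 CPM per kb, followed by Neurog2 with 8.37 ± 2.06 and Neurod1 with 6.47 ± 1.68. These last 2 did not differ beyond their spread. Phox2a (3.61 ± 0.689), Neurod4 (3.50 ± 0.777) and Elavl4 (3.08 ± 0.869) formed a second level within each other's spread, and Neurog1 (1.41 ± 0.393) and St18 (0.859 ± 0.359) were lowest. In PA2 WT, Isl1 led with 12.8 ± 0.180 CPM per kb and Elavl4 followed with 1.24 ± 0.502, and no other gene of the 8 exceeded 0.193 CPM per kb. Elavl4 therefore had rank 2 of the 8 in PA2 and stood below Neurog2 and Neurod1 in PA3 WT. Its place there against Phox2a and Neurod4 was not resolved. In PA3 HIRE1del it had rank 4 (3.03 ± 1.24 CPM per kb).

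The deletion of HIRE1 moved none of the 8 genes past the threshold in either arch. In PA2, 0 of 8 were called by edgeR (0.438% of all genes), 1 had an unadjusted p under 0.05, and limma-voom also called 0 while DESeq2 called 1. That gene was Isl1, at 35.3 to 43.8 CPM in HIRE1del and 50.1 to 51.4 in WT, ranges that did not overlap, with a log2 fold change of -0.34 ± 0.08 and an adjusted p of 0.0806. DESeq2 gave Isl1 an adjusted p of 0.00478, and over its 14 alternatives the adjusted p ran from 0.00478 to 0.251, with 3 of them past the threshold. In PA3, 0 of 8 were called by edgeR (0.216% of all genes), by DESeq2 or by limma-voom, and 0 had an unadjusted p under 0.05 by edgeR. Neurog2 was lower in all 3 PA3 HIRE1del libraries than in any PA3 WT library (log2 fold change -0.47 ± 0.22, adjusted p = 0.527), and so was Isl1 (-0.14 ± 0.07, adjusted p = 0.564). Neither passed the threshold. How many of all genes had ranges apart between the genotypes, in either arch, is not given here. For the others in PA3 the log2 fold change lay between -0.72 ± 0.38 for Neurog1 and 0.04 ± 0.50 for St18.

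The arch difference itself was also compared between the genotypes with an interaction term. None of the 8 genes was called by edgeR (0.0487% of all genes), DESeq2 or limma-voom, and 0 of 8 had an unadjusted p under 0.05. The difference of the PA3 minus PA2 log2 fold changes, HIRE1del minus WT, was 0.20 ± 0.10 for Isl1 (adjusted p = 0.887) and 0.52 ± 0.48 for Elavl4 (adjusted p = 0.909), the genes with counts in every library. For the 6 genes that are rare in PA2 it ranged from -0.46 ± 0.99 (Neurod4) to 0.53 ± 0.75 (Neurog2). PA2 libraries held 0 to 12 counts of each of these 6.

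**Figure D2:**
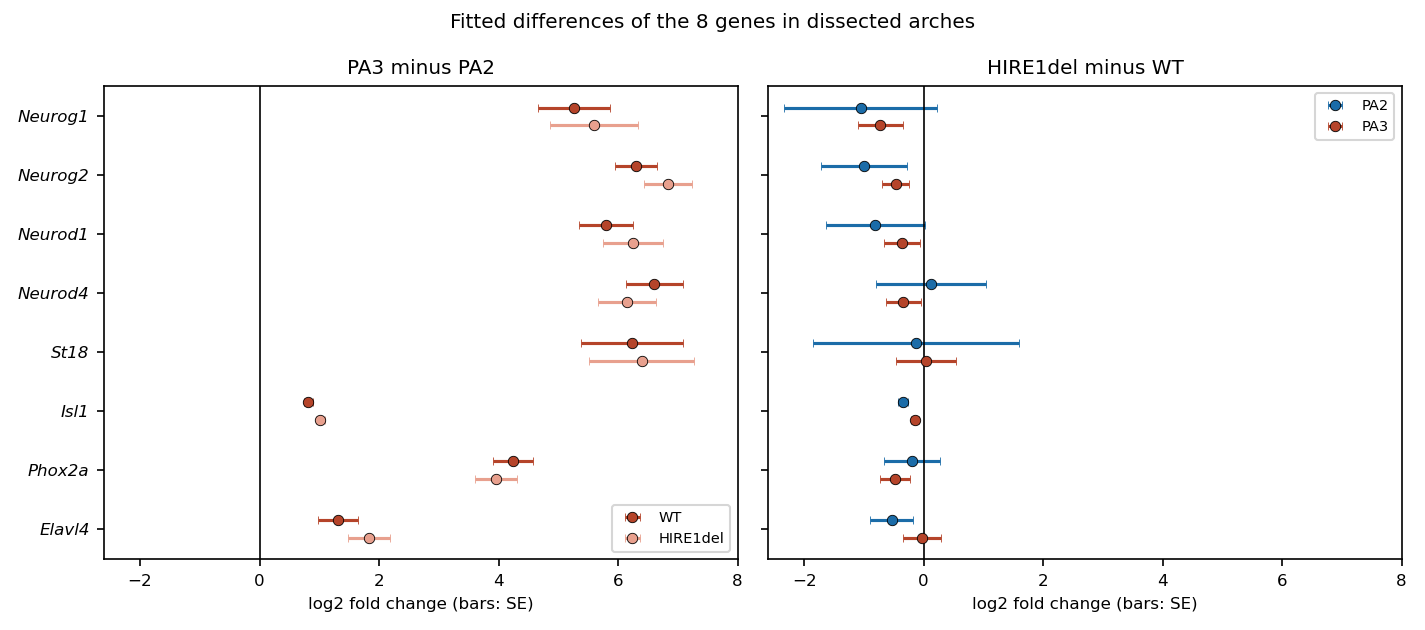
Fitted log2 fold changes of the 8 genes in the dissected arches (points; bars, SE from the edgeR fit, 3 libraries per group), on the left PA3 minus PA2 in each genotype and on the right HIRE1del minus WT in each arch. On the left, 6 genes lie above 3.9 and Isl1 and Elavl4 between 0.82 and 1.83. On the right, Isl1 in PA2 (-0.34 ± 0.08) lies farthest from 0 for its error.

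Over the 6 PA3 libraries the 8 genes did not all share 1 order, a pattern in which HIRE1del replicate 1 weighed heavily. Neurod1, Neurod4, St18 and Elavl4 were all lowest in HIRE1del replicate 1 and next lowest in WT replicate 3. St18 was at 20.7% of its mean over the 6 PA3 libraries in the former and at 51.6% in the latter, and Neurod1 at 43.0% and 79.2%. Neurog1 and Neurog2 were lowest in another library, HIRE1del replicate 3, at 47.5% and 66.7% of their means, and highest in WT replicate 1, at 163% and 149%. In HIRE1del replicate 1 they stood at 82.6% and 89.3%. Isl1 was lowest and highest in the same libraries as the neurogenins, at 92.1% and 114%. Phox2a was lowest in HIRE1del replicate 1 (72.7%) and highest in WT replicate 1 (137%). Neurod1, Neurod4, St18 and Elavl4 are called neuroblast genes from here on, a grouping made after these values were seen. These genes ranked the 6 libraries in other orders than Neurog1 and Neurog2, while Isl1, also a gene of neuroblasts, did not side with them.

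This was described by Pearson's r of the deviations of log2(CPM + 0.5) from the group mean over the 12 dissected libraries. The genes of a library share its pool and depth, and PA2 and PA3 libraries may share a pool, so the values carry no p. The highest values were 0.938 for Neurod1 with St18, 0.904 for Neurod4 with St18, 0.819 for Neurod1 with Elavl4 and 0.818 for St18 with Elavl4. Neurog1 with Neurog2 gave 0.640, Neurog2 with Neurod1 0.191 and Neurog1 with Neurod1 -0.000675. Over the 6 PA3 libraries alone, a choice made after seeing the data, Neurod1 with St18 gave 0.996, Neurog1 with Neurog2 0.960 and Neurog2 with Neurod1 0.0111. The low values between neurogenins and neuroblast genes rested on HIRE1del replicate 1. Over the 5 PA3 libraries without it, Neurog1 and Neurog2 gave 0.735 and 0.749 with Neurod4, 0.649 and 0.611 with Elavl4, 0.457 and 0.424 with Neurod1, and 0.301 and 0.287 with St18, while Neurod1 with St18 gave 0.985. Over the 11 dissected libraries without it, Neurog2 with Neurod1 was 0.588 and Neurog1 with Neurod1 0.317, and among the neuroblast genes Neurod4 with St18 was 0.633 and Neurod1 with Neurod4 0.389, against 0.812 over 12. Isl1 with Neurog2 gave 0.831 over 6 and 0.849 over 5. Phox2a gave 0.584 with Neurog2 and 0.357 with Neurod1 over 6, and 0.779 and -0.0984 over 5.

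The same library stood apart for neuronal genes at large. Of 20 pan-neuronal genes tested, 20 were lowest of the PA3 HIRE1del group in replicate 1, against 31.0% of all genes tested, as were 8 of 9 sensory neuron genes and 8 of 10 other neurogenic regulators. The 22 pan-neuronal genes summed to 132 CPM there and to 331 and 419 CPM in replicates 2 and 3. In PA2 that sum was 131 to 155 CPM. Crest glia and progenitor markers were lowest there in 4 of 5 tested, although their sum was 98.6 CPM against 92.6 and 107 in replicates 2 and 3. Epithelial markers were lowest in replicate 1 in 1 of 12, with sums of 733 CPM against 729 and 541, and erythroid markers in 0 of 6. The part of these cells in the spread was not tested. Without this library the PA3 minus PA2 log2 fold change in HIRE1del was 6.57 for Neurod1, 6.44 for Neurod4, 6.88 for St18 and 2.13 for Elavl4, and all 8 genes were still called.

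**Figure D3:**
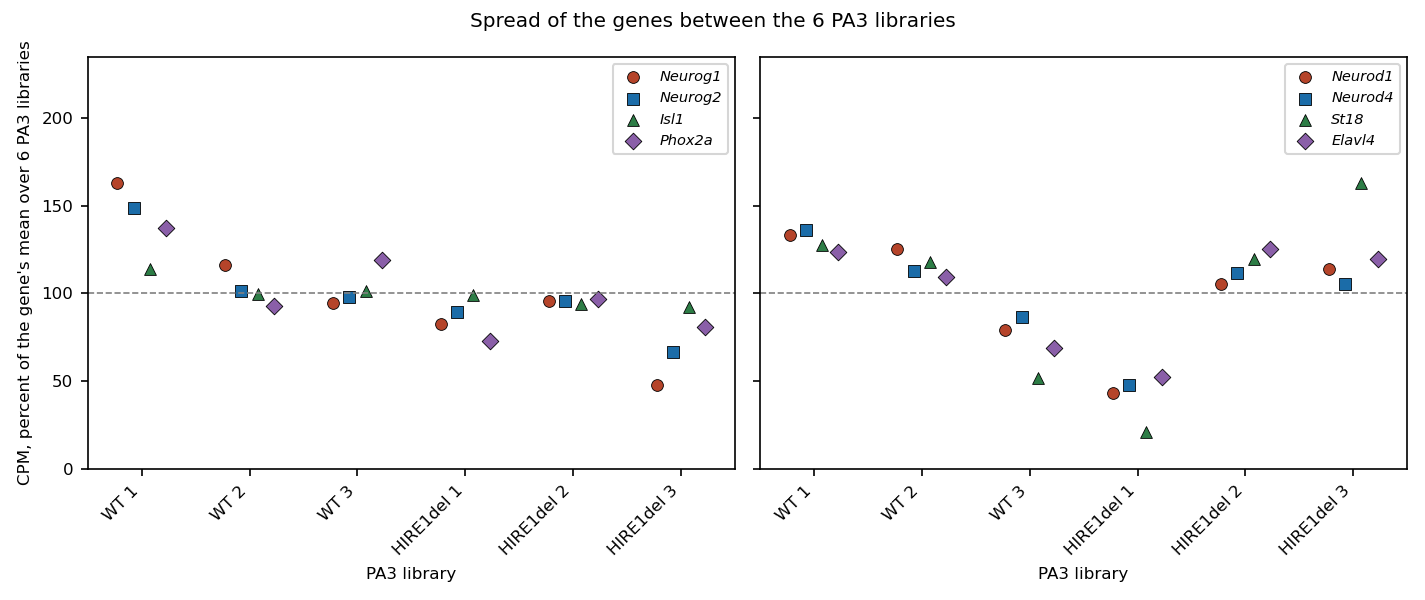
CPM of each gene in the 6 PA3 libraries as a percent of its mean over them (dashed line, 100), with Neurog1, Neurog2, Isl1 and Phox2a on the left and Neurod1, Neurod4, St18 and Elavl4 on the right. The right-hand genes are at 20.7 to 52.5% in HIRE1del replicate 1, while the left-hand genes are at 72.7 to 99.4% there.

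Other neuronal genes were called higher in PA3 as well, though many could not be tested. Of 19 other neurogenic regulators 10 were tested, 7 were higher in PA3 WT and 1 lower, with a median log2 fold change of 2.04 against -0.000650 over all genes, of which 19.1% were higher and 17.4% lower. The largest were Nhlh1 (5.63 ± 0.71, adjusted p = 5.88e-05), Srrm4 (5.22 ± 0.63, adjusted p = 3.97e-05) and Nhlh2 (4.26 ± 0.49, adjusted p = 2.90e-05). Nhlh1 and Nhlh2 encode bHLH factors of early neurons and Srrm4 a neuronal splicing factor. Insm1, a zinc finger factor of newly born neurons, rose by 3.44 ± 0.39 (adjusted p = 2.70e-05). Of 12 sensory neuron genes 9 were tested and 5 were higher, with a median of 1.41. Tlx3, a homeobox gene of sensory neurons, was higher by 6.29 ± 1.00 (adjusted p = 3.41e-04) and Ntrk3, a neurotrophin receptor of sensory neurons, by 2.15 ± 0.29 (adjusted p = 1.07e-04). Of 22 pan-neuronal genes 20 were tested, 14 were higher and 1 lower, with a median of 2.70, among them Elavl3, a relative of Elavl4 (3.94 ± 0.59, adjusted p = 2.38e-04), and Stmn2, a tubulin-binding protein of growing axons (3.73 ± 0.35, adjusted p = 4.52e-06). In HIRE1del the counts were 7 higher and 1 lower of 10, 5 of 9 higher, and 16 higher and 1 lower of 20, where 18.7% of all genes were higher and 14.7% lower. The 8 genes named from these lists were under 1 CPM in every PA2 library and entered the test only through PA3, so the medians over tested genes lean towards PA3 by the filter. None of their genes was called between the genotypes in either arch.

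Placode genes divided. Of 7, 5 were tested, and Pax8 (log2 fold change 4.07 ± 0.31, adjusted p = 1.26e-06), Eya2 (1.77 ± 0.15, adjusted p = 2.11e-06) and Sox2 (1.23 ± 0.20, adjusted p = 4.82e-04) were higher in PA3 WT while the other 2 were lower. Pax8 was under 1 CPM in every PA2 library and entered the test only through PA3. Dlx3, which is also a gene of the ventral arch mesenchyme, fell by 2.35 ± 0.19 on the log2 scale (adjusted p = 1.42e-06). Pax8 and Eya2 act in otic and epibranchial placodes, and Sox2 is shared with endoderm and neural progenitors.

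Markers of other cells moved with the arch difference as well, and their part in it was not tested. The epithelial markers summed to 325 to 369 CPM in PA2 WT and 666 to 849 CPM in PA3 WT, with 8 of 12 higher and 1 lower (median log2 fold change 1.05), for example Krt8 (1.47 ± 0.14, adjusted p = 6.91e-06). Erythroid markers were higher in 6 of 6, with sums of 1526 to 2395 and 12360 to 24183 CPM. Heart field and heart markers were higher in 7 of 9 tested, among them Gata4 (3.78 ± 0.64, adjusted p = 5.36e-04), and in 6 of 9 in HIRE1del. Of the 7, Myl7 and Myl4 lost the WT call by limma-voom (adjusted p = 0.237 and 0.195) and on leaving out any 1 of 5 libraries, all but PA3 WT replicate 2 (0.0631 to 0.153). Gata4, Myl7 and Myl4 were under 1 CPM in every PA2 library and entered the test only through PA3. Endothelial markers were higher in 5 of 6, with sums of 273 to 290 and 335 to 359 CPM. Crest glia and progenitor markers were higher in 2 of 5 tested, Erbb3 (1.39 ± 0.11, adjusted p = 1.82e-06) and Sox10 (1.13 ± 0.32, adjusted p = 0.0145). The Sox10 call was lost without PA2 WT replicate 1 (adjusted p = 0.0596) or PA3 WT replicate 1 (adjusted p = 0.0510). Of 9 crest mesenchyme markers 1 was higher and 5 lower, Dlx5 most (-1.48 ± 0.10, adjusted p = 7.49e-07). Head muscle markers were higher in 0 of 8 tested and lower in 3, of which Myf5 lost its call without PA2 WT replicate 1 or 3 or PA3 WT replicate 1 or 2 (adjusted p = 0.0510 to 0.0741), and macrophage markers were called in 0 of 4. Of 9 neural tube progenitor markers, which would report hindbrain tissue, Lmx1a alone was tested (2.79 ± 0.33, adjusted p = 3.73e-05), at 10.3 to 18.9 CPM in PA3 WT; the next highest, Pax6, reached at most 0.880 CPM, and 2 had no count in any PA3 WT library. Motor and autonomic neuron markers were higher in 3 of 5 tested, with Dbh, the enzyme that makes noradrenaline, at 0.547 to 1.97 CPM in PA3 WT and without a count in PA2 WT. Dbh, too, could enter the test only through PA3.

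Among the genes outside the 8 whose profile over the 12 dissected libraries was most like their mean standardized profile were Tlx2, Retreg1, Sema3g, Rgs4, Sulf1, Btbd17, Insm1, Tek and Galnt3, with Pearson's r of 0.987 to 0.996 on log2(CPM + 0.5). The likeness is mostly the arch difference, which each of these carried. They differed widely in size, from 0.79 ± 0.08 for Tek to 6.15 ± 0.49 for Tlx2 on the log2 scale. Tlx2, a homeobox gene of visceral and enteric neurons, was at 5.25 CPM on average in PA3 WT and 0.0697 in PA2 WT, and without a count in the 9 sorted libraries, and Rgs4 was at 26.0 and 0.823 CPM.

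The sorted crest of E10.5 PA2 held almost nothing of 6 of the 8 genes. Neurog1, Neurog2, Neurod1 and Neurod4 had 0 counts in its 3 libraries, and St18 and Phox2a 1 count each, which with a floor of 3 counts over the group allows up to 0.0335 CPM for the 4 without a count. At the level of dissected PA2 WT and this depth, 28.3 counts of Neurod1, 21.4 of Neurog2, 27.8 of Phox2a and 10.8 of Neurod4 would have been seen. For Neurog1 and St18 the same reckoning gave 4.73 and 6.36 counts, so these 2 were hard to detect at this depth in either case. The intervals and floors cover counting error only. Sort, read layout and sequencing run differed together between the sets, so no test was made and their parts cannot be told apart. Sorted crest of PA3 was not analysed here, so whether the PA3 transcripts lay in crest cells was not measured in these libraries.

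Isl1 and Elavl4 were found in the sorted E10.5 PA2, each to a different degree. Isl1 was at 7.26, 3.88 and 2.78 CPM, 9.17% of the mean of dissected PA2 WT, and every sorted library was far below every dissected one. The 12 epithelial markers were at 0.597 to 11.8% of their dissected level (median 2.15%), with Krt18 the highest in sorted cells at 5.68 CPM and, at 11.8%, the only 1 of the 12 above Isl1 in percent. The medians were 2.52% for 6 endothelial markers (1.18 to 6.25%, highest Kdr, 3.26 CPM) and 0.189% for 6 erythroid markers (0.0078 to 0.378%, Hba-x, 2.14 CPM), all below Isl1. They were 1.85% for 6 head muscle markers (0 to 38.7%, Des, 6.32 CPM), 5.51% for 4 macrophage markers (1.13 to 32.4%, Fcer1g, 0.356 CPM) and 16.5% for 4 heart markers (0 to 181%, Hcn4, 8.99 CPM), ranges that held the Isl1 value. Elavl4 was at 4.88, 3.57 and 3.37 CPM, 59.0% of dissected PA2 WT, and its sorted range overlapped the dissected range of 4.00 to 9.41 CPM. Crest mesenchyme markers had a median of 155% (9 genes, 1.64 to 187%, Pdgfra highest in CPM), with Tfap2b at 1.64% and Tfap2a at 28.0%. Crest glia markers had a median of 123% (5 genes, 27.2 to 132%). Among these Erbb3 was highest in CPM (10.3) but lowest in percent, at 27.2%. Pan-neuronal genes had a median of 125% (10 genes at 1 CPM or more in PA2, 26.3 to 273%). Among these Gap43 was highest in CPM (105) and Nefl in percent. The other neuronal lists divided. Other neurogenic regulators had a median of 177% (5 of 19 genes, 11.8 to 191%, Ebf3 highest in CPM) with 1 of 5 lower. These 5 were Ebf3, Ebf2, Hes6, Dll1 and Onecut2, at 145, 41.6, 38.5, 5.88 and 1.16 CPM in dissected PA2 WT. The rest, among them Nhlh1, Nhlh2, Insm1, Srrm4 and Myt1, averaged under 1 CPM there. The median does not cover them. Sensory neuron genes had a median of 15.6% (5 genes, 1.08 to 126%, Ntrk2 highest, 15.9 CPM and 126%). Of these 4 were lower, 3 of them with ranges apart, with P2rx3 at 8.02%, Tlx1 at 1.08% and Isl2 at 75.9%. Motor and autonomic genes had a median of 46.3% with 3 of 3 lower. Placode genes had a median of 61.9% with 3 of 4 lower, Sox2 at 7.59% and Dlx3 at 165%. These genes are named after their values were seen. Over all 13460 genes at 1 CPM or more in dissected PA2 WT the median was 97.2%, and 6.87% of them were at or below 10%.

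**Figure D4:**
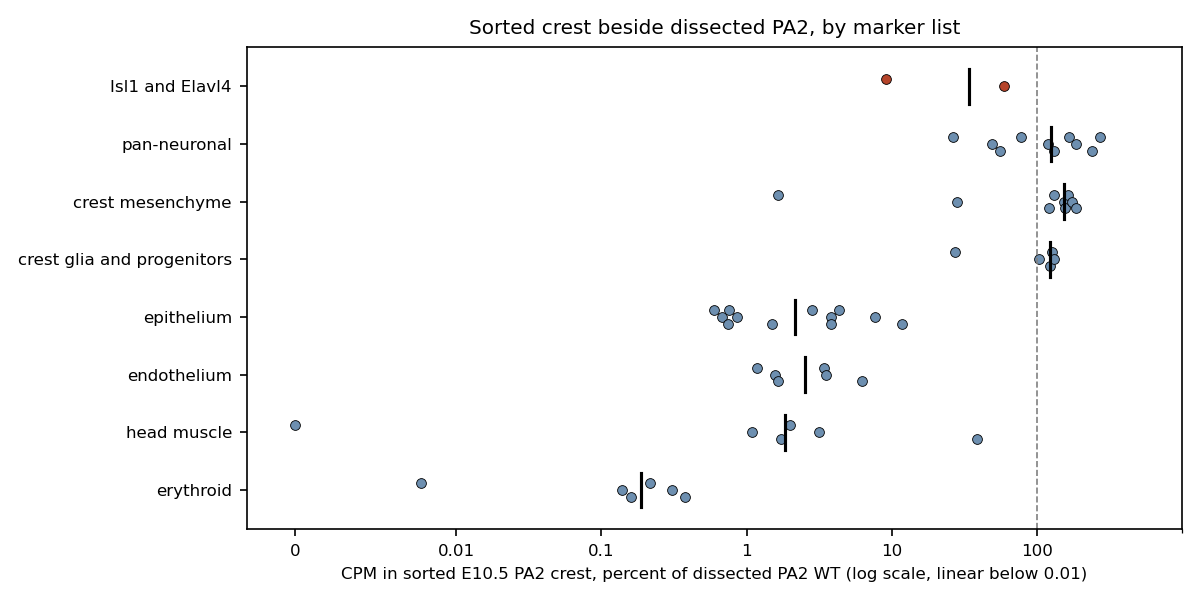
Mean CPM in sorted E10.5 PA2 crest as a percent of dissected PA2 WT, for the genes of the lists drawn at 1 CPM or more in dissected PA2 (points, 1 per gene, with the median as a bar, on a log axis that is linear below 0.01, where vertical offsets only separate points). The lists of other neurogenic regulators, sensory neuron, placode, motor and autonomic, neural tube, heart and macrophage genes are not drawn. Isl1 lies at 9.17% and Elavl4 at 59.0%, with epithelium around a median of 2.15% and crest mesenchyme around 155% (1.64 to 187%).

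From the PA2 crest to the pinna Isl1 fell steeply, Elavl4 fell and then rose, and the other 6 genes stayed near 0. Only Isl1 and Elavl4 could be tested in the sorted set, and Isl1 reached 1 CPM in the 3 E10.5 libraries alone, so that it could enter the test only by being high at E10.5. Isl1 fell from 2.78 to 7.26 CPM at E10.5 to 0.149, 0.131 and 0.170 CPM at E12.5 (log2 fold change -4.92 ± 0.44, adjusted p = 2.15e-06), where 33.7% of the 13438 genes tested were called lower. At E14.5 it was at 0.110, 0.105 and 0.153 CPM, 4 to 7 counts per pinna library at either stage, and did not pass the test against E12.5 (-0.28 ± 0.61, adjusted p = 0.706). Elavl4 was at 1.45, 2.64 and 2.28 CPM at E12.5, below every E10.5 library (-0.88 ± 0.24, adjusted p = 0.00629), and at 5.02, 6.35 and 6.20 CPM at E14.5, above all E12.5 libraries (1.46 ± 0.23, adjusted p = 2.18e-04), where 32.6% of all genes were called higher. E14.5 cells were freed with papain and earlier cells with trypsin, so stage and enzyme cannot be told apart in that step.

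The remaining 6 genes stayed at or near 0 in the pinna. Over the 3 libraries of E12.5, Neurod1 had 3 counts, all in replicate 2, St18 and Phox2a 2 each, Neurog1 1, and Neurog2 and Neurod4 0. At E14.5 Phox2a had 3 counts, Neurog2 and St18 1 each, and Neurog1, Neurod1 and Neurod4 0. The floor of 3 counts over a group was 0.0345 CPM at E12.5 and 0.0216 CPM at E14.5. Other neuronal genes did change there: of 12 pan-neuronal genes tested 7 were higher and 3 lower at E12.5 than at E10.5, and 2 were higher and 6 lower at E14.5 than at E12.5, where 35.0% and 33.7% and then 32.6% and 33.1% of all genes were higher and lower. Crest glia and progenitor markers were higher in 1 of 6 tested in the first step and in 6 of 6 in the second.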

How the data were processed

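RNA of 21 libraries was analysed, 12 from dissected arches and 9 from sorted crest, in 7 groups of 3. The values deposited by the authors are raw read counts per gene, not normalized. Per the study's methods, 50-base reads (paired-end for the arches, single-end for the crest) from an unstranded kit were aligned to mm10 with QuasR and Rhisat2 and counted per UCSC known gene with QuasR's setting for reads opposite in strand. Single-end and paired-end sets were not tested against each other.

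Counts went into edgeR 4.0.16 (R 4.3.3): a gene needed 1 CPM or more in 2 libraries or more, with TMM factors (0.982 to 1.01 and 0.946 to 1.04), a mean per group over each whole table, two-sided quasi-likelihood tests and Benjamini-Hochberg adjustment over all genes, called at an adjusted p under 0.05. The SE is the size of the log2 fold change divided by the square root of F. CPM used TMM-scaled totals, and 3 counts were the floor (0.0924 to 0.117 CPM for 1 arch library, 0.0631 to 0.111 for 1 crest library). Replicates differed by a chi-square per degree of freedom of 6.68 to 44.2, so no library was a copy. 0 columns of values were left unused. Alternatives were DESeq2 1.42.0, limma 3.58.1 (voom), other scalings and filters, only the libraries compared, a replicate block and leaving out each library.

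PA2 and PA3 libraries of the same genotype and number were taken as pairs in the replicate block only, and the main tests did not use the pairing. The correlation of their deviations from the group means was 0.382, 0.230 and 0.248 for WT, and for HIRE1del 0.213, 0.284 and 0.342. PA2 WT with PA3 HIRE1del of the same number, which differ in genotype, gave 0.0446, -0.202 and 0.276, so the pairing is uncertain. The labels do not state the pairing. The genes, the marker lists and the naming rule (all 8 genes, Hoxa2, up to 4 of the largest called genes per list, the highest marker of each other cell type in sorted PA2, and the 10 most alike) were chosen with earlier results of these data known. A gene that this rule named is not reported here. The code was tested on simulated data.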

Additional observations from a re-analysis of the deposited data

How the results depend on the processing

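All 8 genes were called higher in PA3 under each of the 14 alternatives in WT and in HIRE1del, the replicate block among them (8 of 8 in both). Of all genes, 25.8 to 42.4% were called in either direction in WT over these alternatives and 23.7 to 39.1% in HIRE1del. All but Isl1 and Elavl4 passed the main filter only through PA3, so their calls are no independent results. Isl1 and Elavl4 kept their calls between stages under each of 14 alternatives there, where 49.5 to 71.5% of all genes were called in the first step and 48.7 to 67.9% in the second. Of 103 recomputed counts of called genes 100 stayed within 1.5 times. The exceptions were in PA2, HIRE1del against WT, where 1 gene, Isl1, was called by DESeq2 (adjusted p = 0.00478), with a replicate block (0.0154) and without PA2 HIRE1del replicate 1 (0.0458), and leaving out each library in turn gave 0 to 1 calls. Libraries of the 2 genotypes share a number but not a pool as far as the labels say, and their deviations correlated at 0.140, -0.136 and 0.236 in PA2. With the block, 105 genes in all were called there in place of 63, 54 in place of 31 in PA3, and 26 in place of 7 for the interaction. DESeq2 called 162, 94 and 29. The cause was not tested.

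The median r between the 8 genes over 12 libraries was 0.200. It was 0.387 over PA3 libraries only, 0.403 without PA3 HIRE1del replicate 1 and 0.662 over PA3 libraries without it, all chosen after seeing the data. Uncalled genotype differences changed sign as follows. HIRE1del against WT in PA3 gave St18 -0.24 by limma-voom and -0.13 with the replicate block, and Elavl4 0.0066 with the block. The interaction gave Neurog1 -0.044 and St18 -0.20 by limma-voom. Leaving out each library in turn gave, in PA2, Neurod4 -0.38 to 0.56, Neurog1 -3.79 to 0.38, Phox2a -0.61 to 0.12 and St18 -0.42 to 0.33. In PA3 it gave Elavl4 -0.24 to 0.28 and St18 -0.48 to 0.52. For the interaction it gave Neurod1 -0.0033 to 0.83, Neurod4 -0.90 to 0.042, Neurog1 -1.10 to 3.07, Neurog2 -0.014 to 1.09, Phox2a -0.60 to 0.12 and St18 -0.36 to 0.64. Of 1559 recomputed differences of other named genes 34 lost their call. With 0 to 12 counts per PA2 library, genotype differences of 6 genes in PA2 could not be measured closely.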
